A study of Mus musculus with 12 samples.

Results

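Interleukins are the secreted signals by which blood cells and their neighbours direct one another's growth, maturation and activation, and interleukin receptors are the surface chains that receive them. The 371 ATAC-seq peaks described here are those of the 84243 in the master peak-list whose assigned gene has a symbol made of Il and a number. They belonged to 72 gene symbols. The reference annotation held 84 genes of this naming rule, 83 of them protein-coding, and 12 had no assigned peak. By known function, 37 of these genes encode ligands (120 peaks), 38 encode receptor chains (225 peaks), 4 encode antagonists or soluble binding proteins (14 peaks) and 2 encode the receptor-like proteins Il1rapl1 and Il1rapl2 (6 peaks). The other 3 are the enzyme genes Il4i1 and Il4i1b and the non-coding gene Il1bos (6 peaks). The 4 genes given as markers of the group, Il7r, Il2ra, Il6ra and Il1rl1, are all receptor genes.

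ATAC-seq uses a transposase that cuts exposed DNA, so a peak marks accessible chromatin. The 12 samples were 2 replicates each of 6 cell types sorted by flow cytometry from untreated wild-type C57BL/6 mice aged 8 to 12 weeks. Hematopoietic stem cells (HSCs), megakaryocyte progenitors (MkPs), erythroid progenitors (EPs), granulocyte/macrophages (GMs) and B cells came from bone marrow, and T cells from thymus according to the sample labels. The sort of T cells took cells negative for CD25, the protein that Il2ra encodes. The list is pooled over all samples, assigns no peak to a cell type and gives no reads per peak, so cell type identity was not checked against marker genes, depth is unknown, and no value below has an error between replicates. Levels per cell type were not analysed here, and all comparisons are counts within 1 list, described without a test. Intervals are 95% Wilson intervals and cover counting error only.

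Interleukins act through a few receptor architectures. The IL-1 family signals through receptors that recruit Myd88, the common gamma chain and common beta chain families and the IL-6, IL-10 and IL-12 families signal through Janus kinases (JAKs) and STAT proteins, and the IL-17 family signals through the adaptor encoded by Traf3ip2. IL-7 and its receptor are needed for lymphocyte development, IL-2 and the high-affinity chain CD25 for T cell expansion and regulation, IL-6 for acute responses and myeloid output, and IL-33 and its receptor ST2, the product of Il1rl1, for type 2 immunity. Ligand genes are mostly transcribed on stimulation, whereas many receptor chains are present on resting cells.

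The sequences below are the central 201 bases of chosen peaks on GRCm38, the assembly also named mm10, read 5′ to 3′ in the direction of transcription of the gene. Capitals mark exact matches, on either strand, to the letters AGGAAG (ETS), TGTGGT (RUNX), AGATAA (site of the GATA factors), TTGCNNAA (C/EBP), TGANTCA (AP-1), TTCNNNGAA (STAT) or CAGNTG (E-box), where N is any base. A match is a description of the letters and not evidence that a factor binds. The first 4 are the promoter peaks of the marker genes, shown because each receptor in this set was open at a start site.
Il7r, chr15:9529778-9529978, minus strand, centred 2 bp from the transcription start site (TSS): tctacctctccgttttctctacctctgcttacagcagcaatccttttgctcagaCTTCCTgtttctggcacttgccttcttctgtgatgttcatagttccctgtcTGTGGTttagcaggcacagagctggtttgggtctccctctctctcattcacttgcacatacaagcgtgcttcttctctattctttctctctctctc
Il2ra, chr2:11642685-11642885, plus strand, centred 7 bp from the TSS: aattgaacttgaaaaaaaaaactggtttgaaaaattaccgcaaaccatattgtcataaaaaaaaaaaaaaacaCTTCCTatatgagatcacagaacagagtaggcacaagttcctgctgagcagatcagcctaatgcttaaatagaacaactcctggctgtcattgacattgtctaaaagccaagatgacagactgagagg
Il6ra, chr3:89913122-89913322, minus strand, centred 26 bp from the TSS, with no match in these bases: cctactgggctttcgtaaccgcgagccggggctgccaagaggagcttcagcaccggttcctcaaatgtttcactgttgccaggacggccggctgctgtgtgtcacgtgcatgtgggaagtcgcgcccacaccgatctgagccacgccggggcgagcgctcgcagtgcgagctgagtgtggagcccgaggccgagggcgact
Il1rl1, chr1:40429381-40429581, plus strand, centred 89 bp from the TSS of an alternative transcript: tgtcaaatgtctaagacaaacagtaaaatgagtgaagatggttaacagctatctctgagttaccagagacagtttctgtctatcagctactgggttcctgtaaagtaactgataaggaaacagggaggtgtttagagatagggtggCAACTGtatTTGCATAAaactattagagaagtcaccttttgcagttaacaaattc
The stretch at Il6ra was GC-rich (65.7% G or C), whereas those at Il2ra (35.8%), Il1rl1 (37.8%) and Il7r (47.3%) were not. The stretch at Il7r held 1 ETS and 1 RUNX match, that at Il2ra held 1 ETS match, and that at Il1rl1 held a C/EBP match next to an E-box.

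The next 3 are promoter peaks of ligand genes, shown because most ligand genes had none.
Il4, chr11:53617259-53617459, minus strand, centred 21 bp from the TSS of a non-coding transcript of the gene: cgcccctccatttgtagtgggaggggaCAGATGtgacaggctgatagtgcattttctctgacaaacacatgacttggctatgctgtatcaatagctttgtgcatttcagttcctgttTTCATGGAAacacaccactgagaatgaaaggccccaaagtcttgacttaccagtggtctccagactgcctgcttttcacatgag
Il12a, chr3:68691620-68691820, plus strand, centred 296 bp from the TSS in intron 1: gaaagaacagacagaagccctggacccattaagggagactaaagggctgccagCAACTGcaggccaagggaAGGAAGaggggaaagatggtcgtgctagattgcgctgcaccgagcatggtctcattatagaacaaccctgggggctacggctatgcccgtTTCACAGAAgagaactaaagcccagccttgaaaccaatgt
Il16, chr7:83655316-83655516, minus strand, centred 79 bp from the TSS of a short transcript: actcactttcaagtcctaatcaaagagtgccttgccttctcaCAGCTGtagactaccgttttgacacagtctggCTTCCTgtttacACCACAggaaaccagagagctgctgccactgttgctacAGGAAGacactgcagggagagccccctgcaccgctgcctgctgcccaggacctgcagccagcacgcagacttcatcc
Those at Il4 and Il12a each held a STAT match, and that at Il16 held 2 ETS matches and 1 RUNX match.

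The last 3 are non-promoter peaks of receptor genes with many peaks, and in each gene the peak with the most motif families in its centre is shown.
Il7r, chr15:9600163-9600363, 70387 bp upstream of the TSS in an intron of the neighbouring gene Spef2: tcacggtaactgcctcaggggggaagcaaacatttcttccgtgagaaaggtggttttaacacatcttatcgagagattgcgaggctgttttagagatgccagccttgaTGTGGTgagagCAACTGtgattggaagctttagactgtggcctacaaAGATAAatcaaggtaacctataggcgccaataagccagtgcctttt
Il2ra, chr2:11657771-11657971, 15079 bp downstream of the TSS in an intron of Il2ra: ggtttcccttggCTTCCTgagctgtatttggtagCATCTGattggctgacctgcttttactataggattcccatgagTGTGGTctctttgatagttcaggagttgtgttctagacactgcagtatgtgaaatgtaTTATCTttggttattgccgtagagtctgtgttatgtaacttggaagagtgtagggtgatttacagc
Il21r, chr7:125596465-125596665, 6864 bp upstream of the TSS: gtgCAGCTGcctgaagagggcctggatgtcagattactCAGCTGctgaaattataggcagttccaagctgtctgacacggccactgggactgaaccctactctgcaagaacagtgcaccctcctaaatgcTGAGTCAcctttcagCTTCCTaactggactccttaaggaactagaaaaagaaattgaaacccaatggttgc
RUNX, GATA and E-box letters lay within the same 201 bases at both Il7r and Il2ra, and AP-1 and ETS letters at Il21r.

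Receptor genes had an open start site more often than ligand genes. A promoter peak, centred at most 500 bp from any curated RefSeq TSS of the gene, was found for 27 of 38 receptor genes (71.1%, interval 55.2 to 83.0%) and for 10 of 37 ligand genes (27.0%, 15.4 to 43.0%). The share over all protein-coding genes was 60.4%, so ligand genes lay below it and the interval for receptor genes included it. The 2 intervals did not overlap. In the smaller classes, 1 of 4 antagonist or binding protein genes had a promoter peak, the interleukin-1 receptor antagonist Il1rn, and so did 1 of 2 receptor-like genes, Il1rapl2. Counted over peaks instead of genes, 41 of the 371 peaks lay within 500 bp of a TSS (11.1%, 8.25 to 14.6%), against 15.6% of the whole list, with 28 of 225 peaks of receptor genes (12.4%, 8.75 to 17.4%) and 10 of 120 peaks of ligand genes (8.33%, 4.59 to 14.7%).

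**Figure D1:**
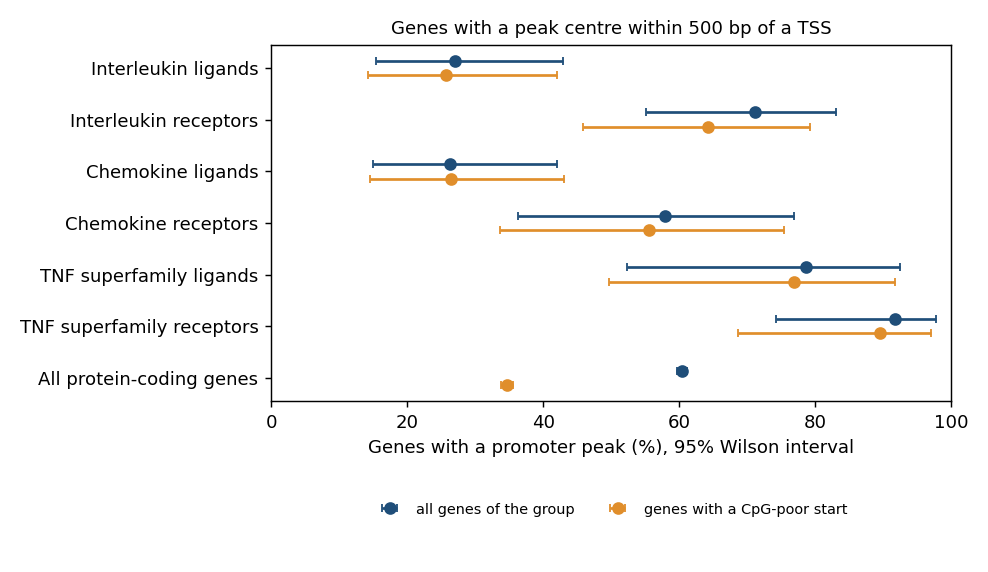
Percent of genes with a peak centre within 500 bp of a TSS, for ligand and receptor genes of the interleukins, chemokines and TNF superfamily and for all protein-coding genes. Blue points are all genes of a group, orange points are those with a CpG-poor start, and bars are 95% Wilson intervals. Interleukin ligands sat at 27.0% and receptors at 71.1%.

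Start sites rich in CpG are as a rule open in most cell types, so the same shares were taken among genes with a CpG-poor start. A CpG-rich start had a GC content of at least 50% and an observed to expected CpG ratio of at least 0.6. Both were taken in the 250 bases before and 50 after the TSS that RefSeq selects as representative, where it selects any. The promoter peak could lie at another curated TSS, as at Il7, Il4, Il16 and Il1rl1, so the class need not describe the open start. Of all protein-coding genes 47.8% had one, against 2 of 37 ligand genes (5.41%), namely Il12a and Il17d, and 10 of 38 receptor genes (26.3%). Among genes with a CpG-poor start, 18 of 28 receptor genes (64.3%, 45.8 to 79.3%) and 9 of 35 ligand genes (25.7%, 14.2 to 42.1%) had a promoter peak, and the share over all such protein-coding genes was 34.7%. The interval for receptor genes lay above that share, and the interval for ligand genes included it. Among CpG-rich starts, 9 of 10 receptor genes and 1 of 2 ligand genes had a promoter peak, with 88.4% over all such genes. The exception among receptors was Il3ra, the alpha chain for IL-3, whose nearest peak was centred 734 bp upstream of the TSS.

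The 10 ligand genes with a promoter peak were Il18, Il1f9, Il12a, Il27, Il6, Il15, Il4, Il7, Il16 and Il34. Il27, a subunit of a cytokine that limits T cell responses, had a peak centred 20 bp upstream of its TSS. Il4, the signature cytokine of type 2 T helper cells, had one 21 bp upstream of a TSS, and Il16, a chemoattractant for T cells, had one 79 bp downstream. These were the 3 ligand genes with a centre at most 100 bp away. The other centres lay at 114 bp for Il34, a ligand of the macrophage growth factor receptor, at 126 bp for Il6, at 142 bp for Il1f9 (IL-36 gamma), at 169 bp for Il7, at 181 bp for Il18, at 285 bp for Il15, which sustains natural killer and memory T cells, and at 296 bp for Il12a, the p35 subunit of IL-12. The peak at Il18, an activator of interferon gamma production, also lay within 500 bp of a start of the neighbouring gene Bco2, and the list cannot tell which of the 2 starts was open.

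For 3 of these ligands the open start was not the one RefSeq selects as representative. The nearest peak centre lay 9707 bp from the selected TSS of Il16, which is the start of a long form, 1306 bp from that of Il4 and 698 bp from that of Il7. With only the selected TSS of each gene, an alternative chosen after the data were seen, 7 of 37 ligand genes and 26 of 38 receptor genes had a promoter peak. The receptor lost was Il1rl1, where the nearest peak lay 10148 bp from the selected TSS. The open start of the ST2 gene was thus an alternative one. The share over all protein-coding genes was not taken with the selected TSS only, and the 60.4% above counts any curated TSS. Transcripts that RefSeq only predicts were not counted as starts. Of the 330 non-promoter peaks of the members, 8 in 8 genes lay within 500 bp of the start of such a transcript of the same gene: 5 receptor genes (Il1r1, Il1rl1, Il3ra, Il9r and Il12rb1) and 3 ligand genes (Il12a, Il33 and Il34). At Il1rl1 the distance was 48 bp, for a peak 24.8 kb upstream of the curated start. Il3ra, Il9r, Il12rb1 and Il33 thus had a peak at a predicted start and none at a curated one. Peaks of other genes were not searched in this way, so no share over the whole list stands beside these 8.

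Most receptor promoter peaks sat on the start itself. In 21 receptor genes the centre lay at most 100 bp from a TSS. This was 55.3% of receptor genes, against 38.3% of all protein-coding genes. At most 500 bp away, the shares were 71.1% and 60.4%, so most promoter peaks of all genes also lay this close. Of the markers, Il7r, the alpha chain for IL-7 and for thymic stromal lymphopoietin, had a centre 2 bp from its TSS, Il2ra 7 bp, Il6ra 26 bp and Il1rl1 89 bp. Il21r, the receptor for IL-21, had one at 3 bp, Il17rd, a member of the IL-17 receptor family, at 9 bp, Il6st (gp130), the signalling chain shared by the IL-6 family, at 13 bp, and Il2rg, the common gamma chain itself, at 26 bp. The decoy receptor Il1r2, the signalling receptor Il1r1 and the IL-12 receptor chain Il12rb2 each had 2 promoter peaks, 30 in all for the 27 receptor genes. HOMER assigned the second one at Il1r2 to the start of the non-coding gene Gm16894. The peak at Il17rb, a chain of the IL-25 receptor, also lay at the start of Chdh and was assigned to that gene by HOMER, the annotation program the authors used.

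The 11 receptor genes without a promoter peak were Il20rb, Il22ra1, Il17rc, Il17re, Il11ra2, Il12rb1, Il23r, Il31ra, Il3ra, Il13ra2 and Il9r. Il22ra1, a chain for IL-22, had its nearest peak centre 11698 bp from the TSS, and Il20rb, a chain for IL-20 family cytokines, 24176 bp. Il17re, a chain of the IL-17C receptor, was the closest to the limit, at 575 bp, followed by Il3ra at 734 bp and Il9r, the IL-9 receptor, at 890 bp. Il12rb1, the chain shared by the IL-12 and IL-23 receptors, had its nearest at 1693 bp, Il17rc, a chain for IL-17A and IL-17F, at 2193 bp, Il31ra, a chain for the itch cytokine IL-31, at 2437 bp, and Il23r, which is specific to IL-23, at 11227 bp. Il13ra2, a decoy for IL-13, had none within 124589 bp of its TSS. Il11ra2 is a near-identical copy of Il11ra1, an IL-11 receptor gene with a peak 45 bp from its TSS, and since reads that map to several places were left out of the list, the absence of a peak at Il11ra2 is uncertain. Just inside the 500 bp limit were Il1rl2 (425 bp), the IL-36 receptor, Il12a (296 bp) and Il15 (285 bp), and the ligands just outside it were Il17d (849 bp) and Il12b (932 bp).

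By receptor architecture, the share of genes with a promoter peak was higher for receptors than for ligands in each of the 6 families that hold both. In the IL-1 family all 7 receptor genes had a promoter peak, against 2 of 8 ligand genes, with Il1a, Il1b and Il33 among those without. In the common gamma chain family, counted with IL-13, it was 8 of 10 receptor genes and 3 of 7 ligand genes, with Il2, Il9, Il13 and Il21 without. In the IL-6 and IL-12 families it was 5 of 9 and 3 of 7, in the IL-10 family 3 of 5 and 0 of 5, in the IL-17 family 3 of 5 and 0 of 6, and in the common beta chain family 1 of 2 and 0 of 2. Il16 and Il34, which belong to none of these families, both had one. The share over all protein-coding genes was 60.4%, and receptor genes exceeded it only in the IL-1 and common gamma chain families. Ligand genes lay below it in each of the 6 families. The families hold few genes each and split the same genes as the shares above.

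The genes were also taken as 25 pairs of a ligand and 1 chain of its receptor, and in 0 of them did the ligand gene alone have a promoter peak. In 11 pairs the receptor gene had a promoter peak and the ligand gene did not, among them Il2 with Il2ra, Il33 with Il1rl1, Il21 with Il21r, Il5 with Il5ra, Il10 with Il10ra and Il17a with Il17ra. In 8 pairs both did, including Il7 with Il7r, Il6 with Il6ra, Il4 with Il4ra, Il15 with Il15ra and Il18 with Il18r1. In 6 pairs neither did, namely Il3 with Il3ra, Il9 with Il9r, Il12b with Il12rb1, Il22 with Il22ra1, Il23a with Il23r and Il31 with Il31ra. Non-promoter peaks were more numerous at the receptor in 15 pairs, at the ligand in 6 and equal in 4. The pairs reuse the genes of the shares above, were drawn up after the data were seen and depend on the chain chosen where a receptor has several: Il12a paired with Il12rb1 in place of Il12rb2 would be open at the ligand alone.

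Non-promoter peaks, assigned by HOMER to the gene with the nearest TSS, numbered 330. At least 1 was assigned to 29 of 37 ligand genes (78.4%, 62.8 to 88.6%) and 32 of 38 receptor genes (84.2%, 69.6 to 92.6%), against 65.6% of all protein-coding genes. The median was 2.00 per ligand gene (range 0 to 15) and 4.00 per receptor gene (range 0 to 18), with 1.00 over all protein-coding genes (range 0 to 85). The medians depended on the rule of assignment: counted within 50 kb of the TSS they were 5.00, 6.50 and 4.00, and with the basal plus extension rule, which lets a peak belong to several genes, 4.00, 9.50 and 3.00. At least 5 were found at 17 receptor genes (44.7%, 30.1 to 60.3%) and 8 ligand genes (21.6%, 11.4 to 37.2%), against 20% (4198 of 21000) of all protein-coding genes. At least 10 were found at 6 receptor genes (15.8%, 7.44 to 30.4%) and 3 ligand genes (8.11%, 2.80 to 21.3%), against 6.82% of all protein-coding genes, a share that both intervals included.

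**Figure D2:**
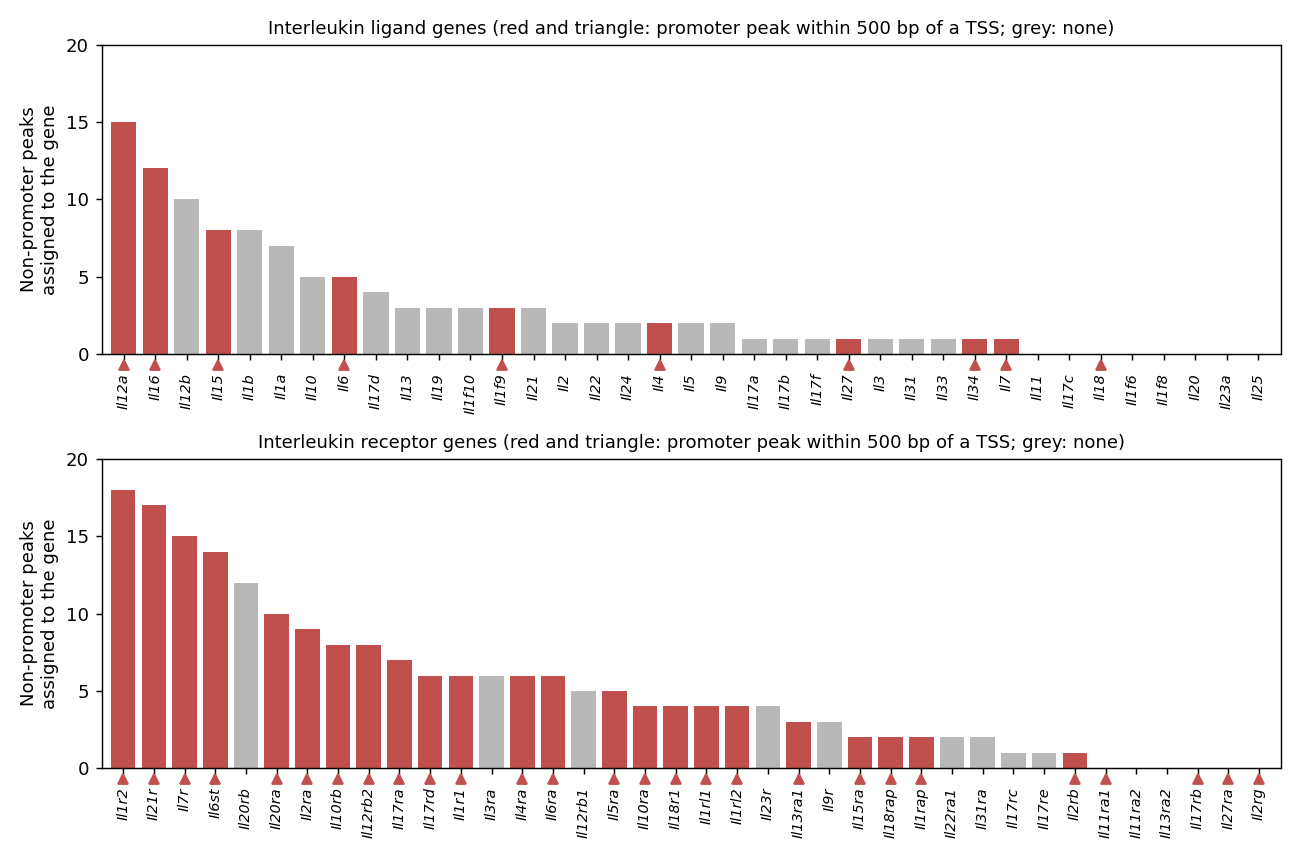
Number of non-promoter peaks assigned to each ligand gene (upper panel, 37 genes) and receptor gene (lower panel, 38 genes), ordered by number. Red bars and triangles mark genes with a promoter peak, grey bars those without. The receptor panel runs from 18 at Il1r2 to 0 and holds 27 marked genes, the ligand panel runs from 15 at Il12a to 0 and holds 10.

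The 10 genes with the most non-promoter peaks were 7 receptor and 3 ligand genes. Il1r2, which binds IL-1 without signalling, had 18, of which 14 lay upstream as far as 83.6 kb, 6 of them in introns of neighbouring genes, chiefly Map4k4. Il21r had 17, from 23.3 kb upstream, at the 3′ end of the neighbouring IL-4 receptor gene Il4ra, to 40.6 kb downstream. Il7r had 15 and Il6st 14. Il20rb had 12 without any peak at its start: all 12 lay downstream of the TSS, from 24.2 to 129 kb, and 7 of them more than 50 kb away. Il20ra, the other chain of the same receptor, had 10 on both sides of an open start. Among ligands, Il12a had 15, of which 13 were intergenic, Il16 had 12, of which 11 lay in its own introns, and Il12b, the p40 subunit shared by IL-12 and IL-23, had 10, of which 5 lay more than 50 kb away, out to 225 kb. Il2ra completed the 10 genes with 9.

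The marker genes differed in where their peaks lay. Of the 15 non-promoter peaks of Il7r, 11 were upstream and 4 downstream, 11 were intergenic, 3 lay in introns of Spef2 and 1 in an intron of Il7r itself. They ran from 78.5 kb upstream, through centres at 45.1, 42.3, 37.8, 34.5, 25.3, 19.3, 5.51 and 3.83 kb upstream, to 42.7 kb downstream. Il2ra showed the opposite layout: 6 of its 9 non-promoter peaks lay inside its own introns, between 10.8 and 29.5 kb downstream of the TSS, and the other 3 lay 5.48, 6.52 and 12.7 kb upstream. Il6ra had 5 of 6 in its own introns, at 1.86, 4.12, 7.98, 25.5 and 40.8 kb, and 1 at 1.71 kb upstream. Il1rl1 had 4, none inside the gene by HOMER class and all upstream of the open start, at 24.8, 38.0, 49.3 and 50.6 kb. Because assignment goes to the nearest start, none of these peaks is shown to act on the gene it is named for.

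**Figure D3:**
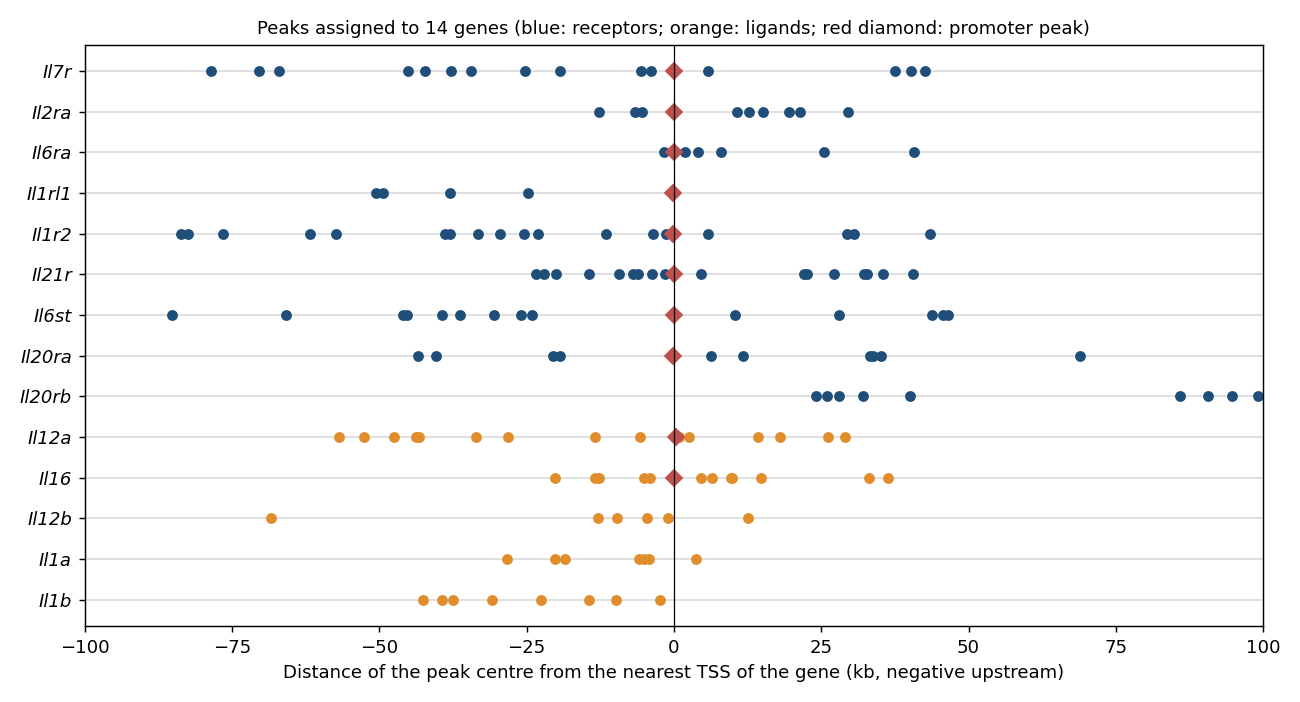
Position of each assigned peak relative to the nearest TSS of its gene (x axis, kb, negative upstream, shown to 100 kb on either side) for 14 genes. Blue dots are receptor genes, orange dots ligand genes and red diamonds promoter peaks. Of the 167 peaks of these genes, 7 lie farther than 100 kb and are not shown, and Il20rb has dots on the downstream side only.

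Genes with distant neighbours collect more peaks, so the counts were divided by the sequence nearer to the TSS of the gene than to that of any other gene. This stretch had a median of 66.2 kb for receptor genes, 44.9 kb for ligand genes and 42.5 kb for all protein-coding genes. Per 100 kb of it, the median was 5.38 non-promoter peaks for receptor genes (range 0 to 24.0, n = 38) and 3.61 for ligand genes (range 0 to 19.3, n = 36, without Il18, whose stretch was under 1 kb), against 2.74 for all protein-coding genes. The middle 50% of genes spanned 2.33 to 9.59 for receptors and 1.07 to 6.45 for ligands, so the 2 classes overlapped widely. Among receptors Il12rb1 was highest at 24.0 per 100 kb, from 5 peaks in 20.8 kb, followed by Il21r (21.9), Il2ra (17.6), Il10rb (17.3) and Il10ra (15.3). Il10rb and Il10ra are the 2 chains of the IL-10 receptor, and 5 of the 8 non-promoter peaks of Il10rb lay in introns of the neighbouring interferon receptor gene Ifnar2. Among ligands Il1a was highest at 19.3, followed by Il12a (15.8), Il1b (11.0), Il1f10 (10.1) and Il16 (9.88). Il1a and Il1b, the classical inflammatory IL-1 cytokines, thus had 7 and 8 assigned non-promoter peaks and no promoter peak. A further 2 peaks in introns of Il1b were assigned to Il1bos. Il7r stood at 9.59, Il6ra at 9.29 and Il1rl1 at 5.30.

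**Figure D4:**
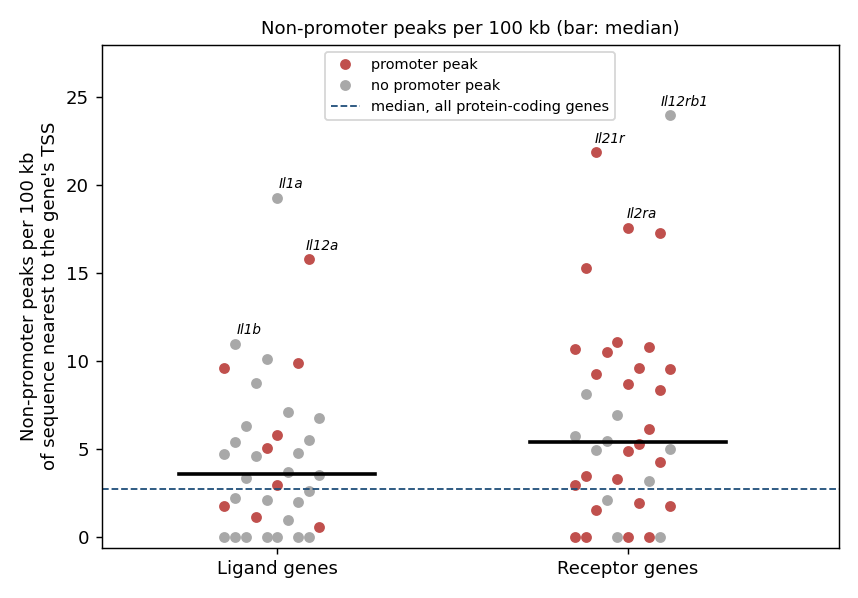
Non-promoter peaks per 100 kb of sequence nearest to the TSS of each gene, for 36 ligand and 38 receptor genes. Each point is a gene, red with and grey without a promoter peak, black bars are medians (3.61 and 5.38) and the dashed line is the median of all protein-coding genes (2.74).

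Neither a promoter peak nor an assigned peak was found for 7 ligand genes (18.9%, 9.48 to 34.2%) and 2 receptor genes (5.26%, 1.46 to 17.3%). The share over all protein-coding genes was 20.1%. The ligands were Il1f6 and Il1f8 (IL-36 alpha and beta), Il20, Il17c, Il25, Il11 and Il23a, and the receptors were Il11ra2 and Il13ra2. Peaks named for other genes lay near these ligands, with the nearest centre between 1109 bp (Il11) and 28912 bp (Il1f8) from a TSS. Non-promoter peaks within 50 kb numbered from 3 (Il1f6 and Il25) to 7 (Il20 and Il11), against 0 at both receptor genes. The interval for ligand genes included the share over all protein-coding genes, and the interval for receptor genes lay below it. Of the 27 ligand genes without a promoter peak, 20 had at least 1 non-promoter peak, and so did 9 of the 11 receptor genes without one.

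Some of the genes counted above lie side by side, with ligand and receptor genes in separate clusters. The IL-1 receptor cluster on chromosome 1 (40084692 to 40551707, 467 kb) holds Il1r2, Il1r1, Il1rl2, Il1rl1, Il18r1 and Il18rap. All 6 had a promoter peak, and the stretch held 31 peaks, or 6.64 per 100 kb, against 3.09 over the whole genome. The genome value counts the full length of every chromosome, stretches without genes included. Each cluster was cut from its first to its last gene, so the densities are not matched on gene content. The IL-1 ligand cluster on chromosome 2 (24153172 to 24351491, 198 kb) held 10 peaks, 5.04 per 100 kb, and 2 of its 6 genes, Il1f9 and Il1rn, had a promoter peak. The cluster of Il10, Il19, Il20 and Il24 on chromosome 1 (130882074 to 131024970, 143 kb) held 5 peaks, 3.50 per 100 kb, none of them at a start. The type 2 cytokine cluster on chromosome 11 (53612460 to 53725103, 113 kb), with Il4, Il13, Il5 and the unrelated DNA repair gene Rad50, held 7 peaks, 6.21 per 100 kb. There Il4 was the only one of the 3 cytokine genes with a promoter peak, and 2 of the 7 peaks were assigned to Rad50.

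By annotation class, intergenic peaks made up 52.4% of the 330 non-promoter peaks (47.0 to 57.8%) and introns 40.6% (35.4 to 46.0%), against 44.6% and 48.0% in the whole list. The intergenic share was 63.6% for ligand genes (70 of 110, 54.3 to 72.0%) and 48.7% for receptor genes (96 of 197, 41.8 to 55.7%). Receptor genes had 71 peaks in their own introns (36.0%, 29.7 to 43.0%), against 34.5% in the whole list. Ligand genes had 28 (25.5%, 18.2 to 34.3%), of which Il16 held 11 and Il15 held 7. The interval for receptor genes included the share in the whole list, and that for ligand genes ended just below it. The intervals of ligand and receptor genes overlapped. Peaks more than 100 kb from a TSS were fewer than in the whole list, at 5.45% (3.48 to 8.46%) against 13.0%. The median distance was 18.5 kb against 22.3 kb. Assignment to the nearest TSS bounds the distance by the spacing of genes, and these values were not matched on it. Overlap with a repeat (16.1% against 17.9%) and with a CpG island (1.21% against 1.98%) was within its interval of the share in the whole list.

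The sequence of the non-promoter peaks resembled that of the whole list in most respects. Median GC content was 46.9% against 47.7%. ETS letters, the site of the PU.1 and ETS1 family, were found in 68.5% of them (63.3 to 73.3%) against 65.0%, RUNX letters in 47.3% (41.9 to 52.7%) against 42.5%, GATA letters in 25.8% against 26.9%, AP-1 letters in 16.1% against 16.9%, and the short E-box in 77.9% against 77.1%. STAT letters were in 18.5% (14.7 to 23.0%) against 15.0%. C/EBP letters, the site of factors that direct myeloid genes, were the one family outside its interval, in 26.4% (21.9 to 31.4%) against 20.7%, and in the central 200 bp of the peaks the 2 shares were 10.0% and 9.60%. The intervals of ligand and receptor genes overlapped in all 7 families. Across the 16 peaks of Il7r, 8 held ETS letters, 8 RUNX, 7 GATA and 6 C/EBP, and across the 10 peaks of Il2ra, 6 held ETS, 5 RUNX and 1 GATA.

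The promoter peaks stood further from the whole list. Their median GC content was 55.7%, with 52.7% for the 10 peaks of ligand genes and 58.3% for the 28 of receptor genes, against 63.3% for all promoter peaks. STAT letters were present in 8 of the 41 (19.5%, 10.2 to 34.0%) against 9.0%, and E-box letters in 34 (82.9%, 68.7 to 91.5%) against 63.5%. These shares were not matched on GC content. The non-promoter peaks of the whole list, with a median GC content of 47.7%, held STAT letters in 15.0% and E-box letters in 77.1%. ETS letters (51.2% against 48.1%), RUNX (26.8% against 19.6%), GATA (12.2% against 8.66%), C/EBP (9.76% against 11.6%) and AP-1 (9.76% against 6.80%) were within their intervals. The promoter peaks with STAT letters included those of Il4, Il12a, Il1f9, Il7r, Il1rl2 and Il18r1, the last with 3 matches.

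All 26 genes of a list of partners of the interleukins and their receptors, namely shared chains, kinases, STATs, adaptors, feedback inhibitors and the secreted cytokine subunit Ebi3, had a promoter peak (100%, 87.1 to 100%), against 60.4% of all protein-coding genes and 88.4% of those with a CpG-rich start. They included the common beta chain Csf2rb, the 4 kinases Jak1, Jak2, Jak3 and Tyk2, the adaptor Myd88 and the inhibitors Socs1, Socs2, Socs3 and Cish. Their median number of non-promoter peaks was 3.50 (range 0 to 21), against 1.00 over all protein-coding genes, among them 21 at Jak1, 18 at Socs1, 11 at Socs3 and 10 at Jak2. Csf2rb and Csf2rb2 are near-identical copies, so the number of peaks found at each may miss some, since multimapping reads were left out. Most kinase and adaptor genes are used by many cells, and this list was not matched to the interleukin genes on promoter type. Its interval included the 88.4% of genes with a CpG-rich start. A link between broad use and the share with a promoter peak was not tested.

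Of the 2 other cytokine systems set beside the interleukins, chemokine genes also had the lower share at the ligands, though with overlapping intervals, with a promoter peak at 10 of 38 ligand genes (26.3%, 15.0 to 42.0%) and 11 of 19 receptor genes (57.9%, 36.3 to 76.9%). In the TNF superfamily it was 11 of 14 ligand genes (78.6%, 52.4 to 92.4%) and 22 of 24 receptor genes (91.7%, 74.2 to 97.7%). The share for interleukin ligands was therefore close to that of chemokine ligands and below that of TNF superfamily ligands, also among genes with a CpG-poor start, where the shares were 25.7%, 26.5% and 76.9%. These lists were made by symbol and are partial. Chemokine ligands were genes named Ccl, Cxcl, Xcl or Cx3cl1, and TNF superfamily ligands were Tnf, Lta, Ltb and genes named Tnfsf. Receptors of the TNF superfamily were genes named Tnfrsf with Ltbr, Cd40, Cd27 and Fas. Ligand genes with other symbols, such as Fasl, were not counted. The difference between families was not tested.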

How the data were processed

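Per the labels and the methods of the study, ATAC-seq was performed on 2 replicates of each of 6 cell types. The authors aligned the reads to mm10 with the ENCODE ATAC-seq pipeline without multimapping reads, called peaks per cell type with the Irreproducible Discovery Rate, pooled the 6 peak-lists, removed overlapping peaks with chromVAR and annotated the rest with HOMER (version 4.10.2 in the submitters' processing notes). The deposited score was 0 in every peak and was not used. Peak positions and distances to the nearest TSS, in bp, were used as deposited, with 499 bp per peak and no normalization.

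Peaks whose gene name was Il followed by a digit were taken as members. The members, the gene lists and the comparisons were chosen with earlier results of these data known. The CpG split was set after the data were seen. Genes, TSSs and sequences came from NCBI RefSeq, on the GRCm38.p6 assembly, with curated transcripts only, and the 72 member symbols were all matched. A peak counted as a promoter peak within 500 bp of a TSS, by RefSeq for genes and by HOMER for peaks. Stretches nearest to a gene under 1000 bp gave no density. Motifs were searched on both strands of the whole peak. Genes were named by a rule. It took the 4 markers, ligands with and receptors without a promoter peak, and the 10 genes with the most non-promoter peaks. Also taken were the 5 ligand and 5 receptor genes with the most per 100 kb. So were ligand and receptor genes with neither a promoter peak nor an assigned peak. Others are named as members of families, clusters, pairs or the pathway list, or as examples chosen after their values were seen. The values of 1 gene of the pathway list are not reported here. No test was run, since the list holds no value per sample. Alternatives concerned the promoter width, the TSSs used, the assignment of peaks, the gene classes, merging of peaks and the motif window. The searches were tested on simulated data. Scripts ran in Python 3.11.15 with pandas 2.3.3 and numpy 2.4.6 for tables, scipy 1.17.1 for intervals and matplotlib 3.10.9 for plots.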

Additional observations from a re-analysis of the deposited data

How the results depend on the processing

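The share of receptor genes with a promoter peak stayed between 55.3% and 78.9% under the alternatives of promoter width, TSS choice, HOMER assignment and the added receptor-like genes, and that of ligand genes between 18.9% and 32.4%, except with a limit of 100 bp, where it was 8.11% (55.3% for receptors and 38.3% over all protein-coding genes) and 26 member peaks remained promoter peaks. Other rules of assignment raised the median number of non-promoter peaks. It was 4.00 per ligand and 9.50 per receptor gene with the basal plus extension rule (3.00 over all genes), and 5.00 and 6.50 within 50 kb of the TSS (4.00 over all genes). In the central 200 bp of the non-promoter peaks the motif shares were 45.5% for ETS, 28.5% for RUNX, 12.1% for GATA, 10.0% for C/EBP, 8.18% for AP-1, 7.58% for STAT and 48.5% for E-box, against 44.6%, 26.0%, 12.7%, 9.60%, 8.84%, 5.63% and 49.7% in the whole list, since a shorter stretch holds fewer matches. The other alternatives moved a value by less than its interval or by under 1.5 times. No paired analysis was possible because the list holds no values per sample and no test was run, and for the same reason no replicate could be left out. Depth per peak is unknown, so a missing peak means only that none passed the filters of the authors in the pooled list.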
